A study of Mus musculus with 6 samples.

Results

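Smooth muscle contractile genes were followed library by library in bEND.3 cells, which are mouse endothelial cells derived from brain. The 10 genes were taken by symbol from the deposited gene table, out of 15398 genes: the actins Acta2 and Actg2, the transgelins Tagln and Tagln2, the calponins Cnn1 and Cnn2, the caldesmon gene Cald1, the tropomyosins Tpm1 and Tpm2, and Des, which encodes desmin. They were chosen by their measured levels in these same 6 libraries, and were sorted into genes that peaked in the first control and the second circSlc17a5 library and genes that were even across libraries. The levels per library are therefore a description and carry no test. The treated group held 3 libraries of cells with stable expression of circSlc17a5, which is circular RNA of Slc17a5, and the negative control group held 3 libraries of cells with the empty vector. The labels do not give the vector's promoter, whether the stable lines were clones, or whether each library came from its own culture. The p-values therefore speak only to the scatter among these libraries, which may be technical.

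Smooth muscle cells contract when myosin pulls on actin filaments, and alpha smooth muscle actin (Acta2) and gamma smooth muscle actin (Actg2) are the actin forms typical of that cell type. Transgelin, calponin and caldesmon bind the thin filament beside tropomyosin, and each family also has members or shorter splice forms that most non-muscle cells use in stress fibres. Many of these genes are controlled by serum response factor (Srf), which binds CArG boxes in promoters and works with the cofactors of the myocardin family.

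Library totals lay between 16848504 and 17600221 rounded counts, and the scaling factors (TMM, trimmed mean of M values) between 0.951 and 1.05. Normalised CPM below means CPM of the total scaled by that factor. Of 13 endothelial genes in the table, 7 had fewer than 10 counts over the 6 libraries together, among them Kdr, Cldn5 and Erg. Myh11, the smooth muscle myosin heavy chain gene, had 1, 2 and 0 counts in the control group and 1, 7 and 0 in the circSlc17a5 group. Lmod1, an actin nucleator of smooth muscle, had between 0 and 3 counts per library. Among the remaining endothelial genes, Flt1, a VEGF receptor, had between 789 and 1174 counts per library, Egfl7, a secreted endothelial protein, between 186 and 241, and Cdh5, the endothelial cadherin, between 14 and 35. Pecam1 had between 5 and 11 counts per library, Tie1 between 3 and 11 and Vwf between 1 and 9. Most listed markers of the labelled endothelial type were therefore near 0, but Flt1 and Egfl7 were not. Of smooth muscle genes, Myh11 and Lmod1 were near 0. Others of the same list of smooth muscle and thin filament genes were not, such as Smtn (8336 to 9908 counts per library) and Mylk (348 to 534). Of the 20 genes of that list, 13 were kept for testing.

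The 10 genes differed widely in abundance. Compared per length, with the mean deposited FPKM (fragments per kilobase of transcript, scaled to library depth) over the 6 libraries, Tpm1 stood first at 493.7 and Tagln2 second at 297, and their ranges did not overlap (458 to 511 and 279 to 322). Cald1 at 102, Cnn2 at 92.1 and Tpm2 at 90.7 followed, and the ranges of these 3 genes overlapped. Des lay below them at 14.2. Tagln at 2.35, Acta2 at 1.60, Actg2 at 0.265 and Cnn1 at 0.060 were lowest, with ranges that reached down to 0 or 0.02 and overlapped with each other. The last 4 are markers of smooth muscle, and Tpm1, Tagln2, Cald1 and Cnn2 are also used by many other cell types.

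Acta2, Tagln, Actg2 and Cnn1 were the members that followed the uneven pattern. Tagln, which encodes the actin-bundling protein transgelin or SM22 alpha (Entrez 21345, chromosome 9, 45929628 to 45936058, plus strand), had 139.45, 2.2 and 0 counts in control libraries 1, 2 and 3. In circSlc17a5 libraries 1, 2 and 3 it had 6.57, 147.41 and 19.63 counts. Control replicate 1 and circSlc17a5 replicate 2 were high and nearly equal, circSlc17a5 replicate 3 was intermediate, and the other 3 libraries held few or no counts. Control replicate 1 was 67.4-fold above control replicate 2 (exact 95% interval 18.3 to 562) and at least 46.1-fold above control replicate 3, where a count of 0 was set to a floor of 3 counts per library. circSlc17a5 replicate 2 was 21.6-fold above circSlc17a5 replicate 1 (10.2 to 54.6) and 7.20-fold above replicate 3 (4.50 to 12.1). These intervals and floors cover counting error only.

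Acta2 (Entrez 11475, chromosome 19, 34240336 to 34255585, minus strand) had 92, 4 and 1 counts in the control group and 4, 87 and 23 in the circSlc17a5 group. Its order over the libraries was close to that of Tagln, with the same pair on top and circSlc17a5 replicate 3 next. The ratio of control replicate 1 to circSlc17a5 replicate 2 was 1.08 for Acta2 (0.798 to 1.47) and 0.967 for Tagln (0.761 to 1.23), so neither ratio was distinguishable from 1 at this depth. circSlc17a5 replicate 3 was 6.03-fold above circSlc17a5 replicate 1 for Acta2 (2.06 to 24.0) and 2.99-fold for Tagln (1.22 to 8.38). Of 2146 different 50-base words in the Acta2 transcripts of GENCODE M21, 7 also occurred in Actg1 and 0 in Actg2, Actb, Acta1 or Actc1.

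Actg2, the gamma actin of gut and other visceral smooth muscle (Entrez 11468, chromosome 6, 83512909 to 83536251, minus strand), had 16, 0 and 0 counts in the control group and 0, 9 and 3 in the circSlc17a5 group. The libraries with counts were the 3 in which Tagln and Acta2 were highest. Cnn1, basic calponin (Entrez 12797, chromosome 9, 22099221 to 22109221, plus strand), had 5, 0 and 0 counts and 0, 3 and 0 counts. Its 8 counts came from control replicate 1 and circSlc17a5 replicate 2, and where it had 0 counts a level of up to 3 counts per library remains possible. The span of Tagln overlaps that of Pcsk7, a proprotein convertase gene on the same strand, which had between 290.83 and 340.02 counts in every library and was even.

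**Figure D1:**
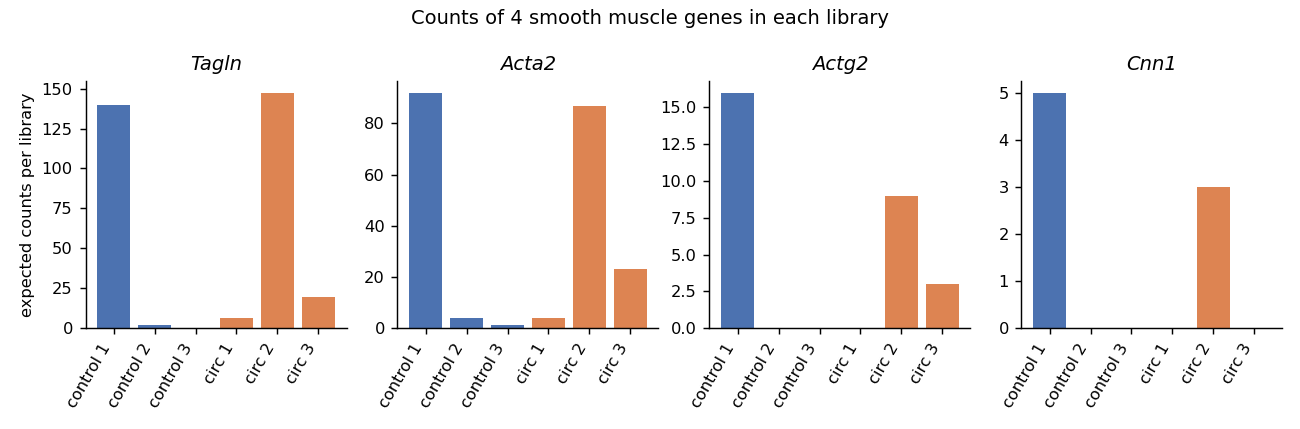
Expected counts of Tagln, Acta2, Actg2 and Cnn1 (vertical axis, own scale for each gene) in each of the 3 control (blue) and 3 circSlc17a5 (orange) libraries. Control 1 and circSlc17a5 2 are the highest bars for each gene, with 139.45 and 147.41 counts for Tagln, and control 2 and 3 are at or near 0.

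A gene was given the strong pattern where control replicate 1 and circSlc17a5 replicate 2 were each at least 2-fold above every other library in normalised CPM. Of 13033 genes with at least 10 counts in all, 26 had it (0.199%), among them Tagln, Acta2 and Actg2. Cnn1 had the same order but too few counts. Of the 11722 genes kept for testing, 6 had it (0.0512%), namely Tagln, Acta2, Col1a2, Col5a2, Bgn and Ccdc80. The wider criterion, that these libraries were merely the highest, held for 438 of the tested genes (3.74%) and for 518 of those with at least 10 counts (3.97%). Since this pattern chose the members, nothing is read from their share.

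The other 23 genes of the strong pattern included matrix genes and genes that most cells use. Col1a2, a chain of type I collagen, had 508, 3 and 0 counts in the control group and 7, 257 and 77 in the circSlc17a5 group. Itgb1, the beta 1 integrin subunit, had 60, 0 and 0 counts and 4, 64 and 6 counts. App, the amyloid precursor protein gene, had 22, 0 and 0 counts and 4, 26 and 4 counts. For Itgb1 the ratio of control replicate 1 to circSlc17a5 replicate 2 was 0.959 (0.663 to 1.39), close to that of Tagln, and for Col1a2 it was 2.02 (1.74 to 2.36), so the genes did not share a single ratio between these libraries. In counts, circSlc17a5 replicate 3 came next, above the remaining 3 libraries, for 12 of the 26 genes.

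**Figure D2:**
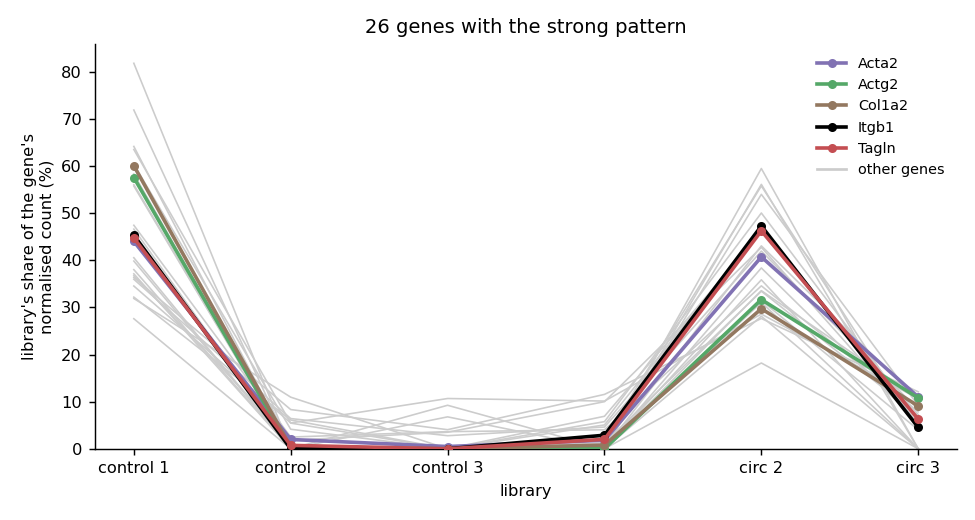
Share of each gene's normalised count found in each library (percent, vertical axis) for the 26 genes with the strong pattern, with Tagln, Acta2, Actg2, Col1a2 and Itgb1 in colour or black. Lines only join the values of a gene, and each line peaks in control 1 and circSlc17a5 2.

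Among fibroblast and matrix markers, 4 of 16 had the strong pattern (Col1a2, Postn, Loxl1 and Fbn1). Of all genes with at least 10 counts 0.199% had it, the share to set beside each list here. The lists were chosen with earlier results known, so nothing is read from their shares. By the wider criterion 6 of 15 with at least 10 counts had it, against 3.97% of all such genes. Among these 6 was Col1a1, at 76.1, 22.1 and 19.5 normalised CPM in control and 12.1, 38.5 and 19.0 in circSlc17a5 libraries. The summed level of the list ranged from 2264 to 2477 normalised CPM in control and from 2359 to 2497 in circSlc17a5 libraries. Sparc (783 to 933.5) and Fn1 (647 to 962) made most of that sum and Col1a2 at most 29.8, so the sum does not show the level of the genes with the pattern. Among mural cell markers 0 of 9 had the pattern, the sum ranged from 392 to 453 in control and from 315 to 322 in circSlc17a5 libraries, of which Anpep alone made 387 to 447 and 305 to 313, and Rgs5, Cspg4, Abcc9 and Rgs4 had fewer than 10 counts in all. In the list of other smooth muscle and thin filament genes, 1 of 20 had it: Myl9, a regulatory myosin light chain, with 11, 0 and 2 counts in the control group and 0, 17 and 0 in the circSlc17a5 group. The part of these other markers in the pattern of the members was not tested. In such bulk RNA, fewer cells of a type and less RNA per cell cannot be told apart.

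By likeness of profile, measured as the root mean square difference between 2 genes of their 6 deviations of log2 CPM from the gene's mean, Acta2 and Tagln differed by 0.565. Among the tested genes outside the list, those nearest to Tagln were Col5a2 at 0.415, Col1a2 at 0.786 and Col11a1 at 0.878. Next came Ccdc80 at 1.02, Pcdhgb7 at 1.07, Bgn at 1.19, Rpl31-ps12 at 1.28 and Rpl32l at 1.42. Those nearest to Acta2 were Col11a1 at 0.608, Pcdhgb7 at 0.621 and Col5a2 at 0.640. Genes not kept for testing, among them Itgb1, App, Postn and Fbn1 of the strong pattern, were not searched. The other 6 tested members lay between 2.33 and 2.55 from Tagln. The naming rule asked for an anchor with a mean of at least 100 counts, which gave Des, so Tagln and Acta2 were added as anchors after their values were seen.

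Promoter windows, from 250 bases before to 50 after the annotated start, were matched for 8 members in RefSeq (GRCm38.p6), with 9 windows in all, but not for Tagln and Actg2. The search was for the CArG box, which reads the same on both strands, and for a looser form in which 1 of its 6 inner bases is G or C. The strict form occurred in 1.63% and either form in 9.98% of all 32851 promoter windows. Among the 9 windows, the strict form was found in that of Cnn2, whose level was even, and the looser form at 2 places in that of Acta2. The 130 bases before the annotated start of these 2 windows are shown because 1 gene had the pattern and the other did not, with the boxes in capitals. The bases shown for Acta2 lie inside its listed span, which runs to 34255585, so they need not precede every Acta2 transcript. Another Acta2 transcript took 50.7% of the gene's counts (42.6% in control replicate 1 and 60.3% in circSlc17a5 replicate 2). The start of that transcript was not examined. A match is a description of letters, and binding to it was not measured. The Acta2 window is chr19:34255374-34255503, minus strand, with boxes starting 84 and 34 bases before the start, and the Cnn2 window is chr10:79988470-79988599, plus strand, with its box starting 56 bases before the start.
Acta2: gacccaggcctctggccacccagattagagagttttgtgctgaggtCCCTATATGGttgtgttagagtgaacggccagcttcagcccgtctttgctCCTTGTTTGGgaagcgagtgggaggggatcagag
Cnn2: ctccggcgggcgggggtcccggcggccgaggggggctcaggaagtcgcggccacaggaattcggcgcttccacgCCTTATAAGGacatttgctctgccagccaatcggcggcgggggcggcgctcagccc

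Tpm1, Cnn2, Cald1 and Tagln2 were even, defined as a highest library at most 1.5-fold above the lowest in normalised CPM, as were 66% of the tested genes and 59.4% of those with at least 10 counts. Tpm1, alpha tropomyosin (Entrez 22003, chromosome 9, 67022590 to 67049672, minus strand), lay at 683, 758 and 679.5 normalised CPM in control and at 669.7, 711 and 718 in circSlc17a5 libraries, a ratio of highest to lowest of 1.13. Cnn2, the calponin of non-muscle cells (Entrez 12798, chromosome 10, 79988600 to 79995400, plus strand), lay at 133, 129 and 139 and at 142, 145 and 145.5, again a ratio of 1.13. Tagln2, the widely expressed transgelin (Entrez 21346, chromosome 1, 172500246 to 172507375, plus strand), lay at 322, 378 and 357.5 and at 294, 311.5 and 322. Cald1, caldesmon (Entrez 109624, chromosome 6, 34598495 to 34775469, plus strand), lay at 400.4, 346 and 357 and at 439, 386.5 and 391. For these 4 genes control replicate 1 and circSlc17a5 replicate 2 were not the highest pair.

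Tpm2 and Des belonged to neither class in normalised CPM. Tpm2, beta tropomyosin (Entrez 22004, chromosome 4, 43513726 to 43523583, minus strand), lay at 159.6, 183 and 159 in control and at 113, 127.5 and 145 in circSlc17a5 libraries. Its ratio of highest to lowest was 1.62, just outside the bound of 1.5, while Tagln2 was the nearest inside at 1.29. In FPKM the ratio for Tpm2 was 1.26, which is inside. Des, the intermediate filament protein of muscle (Entrez 13346, chromosome 1, 75360292 to 75370451, plus strand), lay at 42.0, 54.8 and 47.6 in control and at 28.7, 30.4 and 35.8 in circSlc17a5 libraries, a ratio of 1.91. Every control library was above every circSlc17a5 library for both genes. Des did not share the profile of Tagln and Acta2. The genes nearest to it were Pan3 at 0.035, Znhit6 at 0.041, Zfp692 at 0.045, Morn2 at 0.052, Tnnt2, cardiac troponin T, at 0.055, Ddx39b at 0.058, Bcdin3d at 0.060, Dxo and Tom1 at 0.061 and Camk2n1 at 0.066.

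**Figure D3:**
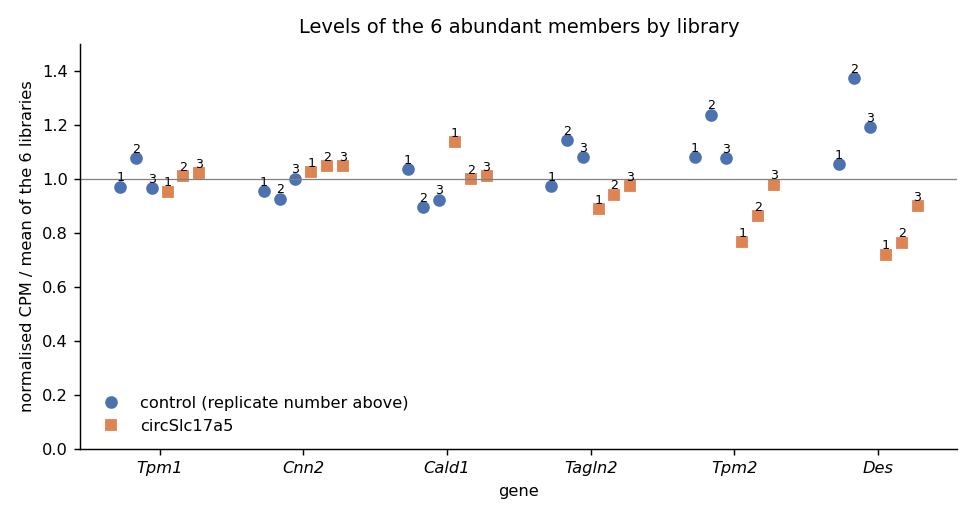
Normalised CPM of the 6 abundant members divided by the mean of the gene's 6 libraries (vertical axis, no unit), with control libraries as blue circles, circSlc17a5 libraries as orange squares and the replicate number above each point. Tpm1 and Cnn2 stay nearest to 1, and the control points of Tpm2 and Des lie above their circSlc17a5 points.

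The transcript table showed which splice forms carried the abundant genes, with coding lengths taken from GENCODE M21 transcripts matched by RefSeq identifier. Long tropomyosins have 284 residues and are the forms of muscle and of many stress fibres, and short ones have 248 and occur in non-muscle cells. Of the Tpm1 transcript counts, those with 284 codons took between 55.8% and 59.6% of each library and those with 248 codons between 33.7% and 39.1%. For Tpm2, 3 transcripts with 284 codons took between 64.9% and 83.9%, and the rest fell to 1 transcript with no match. A Cald1 transcript of 530 codons, the length of the short caldesmon of non-muscle cells, took between 84.3% and 90.3%. The shares in control replicate 1 and circSlc17a5 replicate 2 lay inside those of the other libraries for the 284-codon and 248-codon forms of Tpm1, the 284-codon form of Tpm2 and the 530-codon form of Cald1. Read assignment between such similar transcripts is an estimate of the authors' software.

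**Figure D4:**
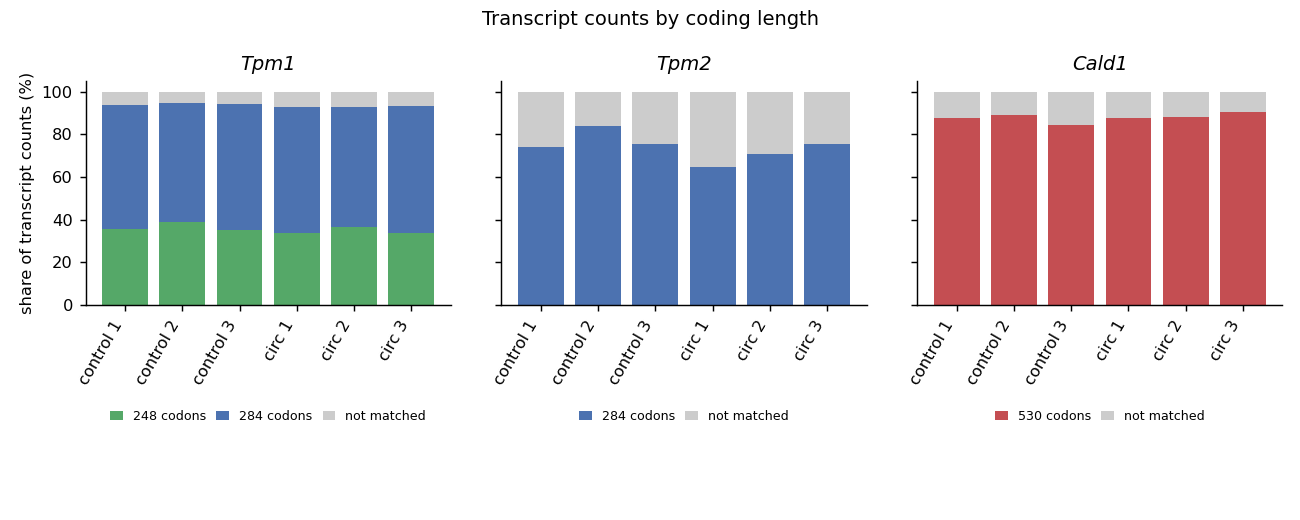
Share of the transcript counts of Tpm1, Tpm2 and Cald1 (percent, vertical axis) in each library, by coding length in codons, with transcripts not matched in GENCODE M21 in grey. The 530-codon form takes between 84.3% and 90.3% of Cald1 in all 6 libraries.

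The comparison between the groups asks which transcripts differ when circSlc17a5 is expressed, and it differs from the pattern above, which placed 1 high library in each group. Of the 10 members 8 were tested, and Actg2 and Cnn1 were below the filter on low counts. Des was 1.52-fold lower in circSlc17a5 cells, at 48.1 ± 6.40 normalised CPM in control and 31.7 ± 3.71 with circSlc17a5 (SD, n = 3 libraries each; log2 fold change -0.60, SE 0.116, edgeR adjusted p = 0.00932). Tpm2 was 1.30-fold lower, at 167 ± 13.6 and 128 ± 15.8 normalised CPM (log2 fold change -0.38, SE 0.0981, edgeR adjusted p = 0.0252). Thus 2 of 8 fell and 0 rose, where 10.2% of all tested genes fell and 11.8% rose by edgeR's quasi-likelihood test. The authors' deposited table gave log2 fold changes of -0.61 for Des (q = 1.59e-04) and -0.38 for Tpm2 (q = 0.00505), in a table where 7.11% of genes with a q had fallen and 15% had changed. The other 8 members had q of 0.107 or more in the authors' deposited table.

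The call of Des ended without circSlc17a5 replicate 1 (edgeR adjusted p = 0.0533). The call of Tpm2 ended without control replicate 2 (adjusted p = 0.0722) or 3 (0.0654) or circSlc17a5 replicate 1 (0.105) or 2 (0.0833), and on the log2(FPKM + 1) scale its log2 fold change was -0.22 (limma adjusted p = 0.0506). Des and Tpm2 were still called, at -0.67 and -0.41, when the high library of each group was left out. The listed span of Tpm2 overlaps those of Car9 and several other genes, and whether reads were shared between them was not tested. Over all genes, 1386 rose and 1198 fell from the counts (53.6% of calls risen), 1433 rose and 673 fell on FPKM values (68% risen), and 1176 rose and 1354 fell with an offset for transcript length and GC content that was added after the data were seen (46.5% risen).

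The other tested members did not pass. Tagln2 had a log2 fold change of -0.19 (SE 0.080, edgeR adjusted p = 0.106) and was called without control replicate 1 (-0.25, adjusted p = 0.0183). Cald1 had one of 0.14 (SE 0.0844, adjusted p = 0.234), Cnn2 0.12 (SE 0.0667, adjusted p = 0.223) and Tpm1 -0.01 (SE 0.0785, adjusted p = 0.907). Groups did not overlap for Tagln2, Cnn2, Tpm2 and Des, 4 of 8, where 42.6% of tested genes did not overlap. With the same offset the values were -0.04 for Tagln2 and 0.01 for Cald1.

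Tagln and Acta2 had group means that single libraries set. Tagln lay at 2.76 ± 4.67 normalised CPM in control and 3.33 ± 4.43 with circSlc17a5 (SD, n = 3 libraries each), a log2 fold change of 0.26 with an SE of 1.17 (edgeR adjusted p = 0.886). Acta2 lay at 1.90 ± 3.03 and 2.19 ± 2.49, a log2 fold change of 0.19 with an SE of 1.06 (edgeR adjusted p = 0.909). With 1 library left out at a time the fitted value for Tagln was lowest, at -1.83, when circSlc17a5 replicate 2 was absent and highest, at 5.64, when control replicate 1 was. For Acta2 the values with the same libraries absent were -1.29 and 3.80. Without control replicate 1 both were called risen (edgeR adjusted p = 0.0188 for Tagln and 0.025 for Acta2), against control libraries with 4 counts or fewer per gene. With both of these libraries absent neither passed the filter on low counts.

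**Figure D5:**
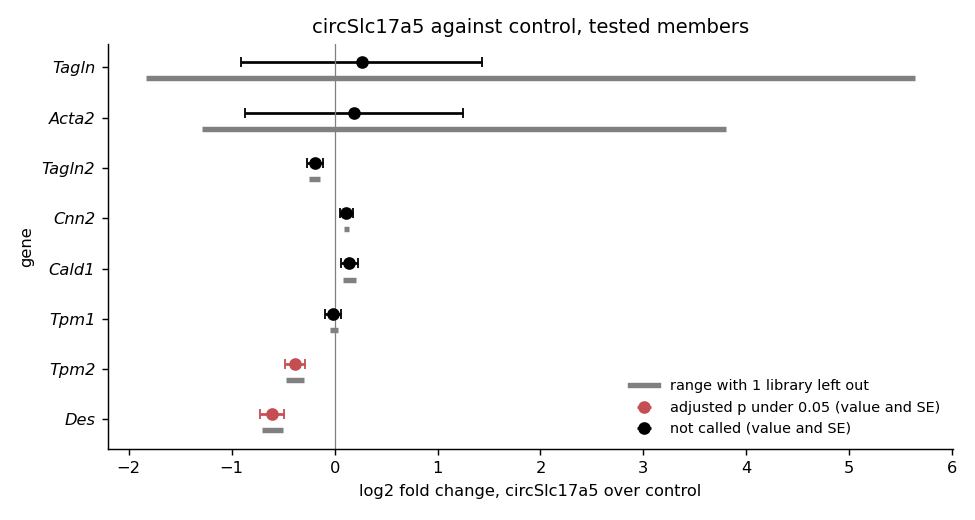
log2 fold change of circSlc17a5 over control (horizontal axis) for the 8 tested members, with points and SE bars from edgeR and grey bars for the range with 1 library left out at a time. Des and Tpm2 (red) lie below 0 with short grey bars, and the grey bars of Tagln and Acta2 run from -1.83 to 5.64 and from -1.29 to 3.80.

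Of 42 member transcripts in the table, 27 were tested and 0 were called by edgeR, where 0.00708% of 28267 tested transcripts were called. An unadjusted p under 0.05 was found for 6 of the member transcripts, where 14.7% of all tested transcripts had one. DESeq2 called 2 of the member transcripts and 6.67% of all transcripts to which it gave an adjusted p.

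Of 13 further smooth muscle and thin filament genes tested, 3 fell and 0 rose, where 10.2% of all tested genes fell and 11.8% rose. The median log2 fold change of these 13 genes was -0.005, against -0.002 over all tested genes. Mustn1, a small nuclear protein of muscle and skeleton, was 1.73-fold lower (edgeR adjusted p = 0.00678). Tpm3, another tropomyosin, was 1.19-fold lower and Myl6, the essential light chain of non-muscle and smooth muscle myosin, 1.22-fold lower. Myl6 was not called with the offset for transcript length and GC content (edgeR adjusted p = 0.0778) or on log2(FPKM + 1) values (limma adjusted p = 0.0943). Smtn, which encodes smoothelin, had between 8336 and 9908 counts, and Mylk, the kinase of the myosin light chain, between 348 and 534, and neither was called. Among actin isoforms, Actb was 1.46-fold lower (adjusted p = 0.0172) and Actg1 was not called, while Acta1 and Actc1 had fewer than 10 counts in all.

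Over all tested genes 11.8% rose and 10.2% fell, the shares to set beside the counts of each list here. Of 17 focal adhesion and stress fibre genes 2 rose and 0 fell (median 0.26): Vcl, vinculin, at 1.22-fold and Flnc, the filamin of muscle, at 1.33-fold. Of 9 genes of Srf and its cofactors 2 rose and 0 fell (median 0.14), the ternary complex factor Elk1 at 1.57-fold and Tead1, a partner of YAP, at 1.29-fold. With the offset for transcript length and GC content Vcl (log2 fold change 0.14, edgeR adjusted p = 0.118), Flnc (0.27, 0.0579) and Tead1 (0.12, 0.16) were not called. Srf itself had 486, 463 and 478 counts in the control group and 567, 513 and 541 in the circSlc17a5 group and was not called. Mrtfa and Mrtfb, cofactors that carry actin signals to Srf, were not called either. Of 12 target genes of Srf, its cofactors or TGF-beta, 3 rose and 2 fell (median 0.16). Among those that rose, the matrix signalling protein gene Ccn1 was 1.41-fold and Mical2, an actin-oxidising enzyme gene, 1.54-fold higher. Tgfb3, a TGF-beta ligand, was 1.34-fold and Pmepa1, a feedback inhibitor of that pathway, 1.89-fold lower. On log2(FPKM + 1) values Pmepa1 was not called (log2 fold change -0.40, limma adjusted p = 0.0778). It was not called on log2(FPKM + 0.1) values either (-0.70, limma adjusted p = 0.0814). Medians of lists are descriptions beside the counts.

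In the marker lists, 2 of 5 tested mural genes rose (Notch3 at 2.45-fold and Pdgfrb at 2.27-fold) and 1 fell (Anpep at 1.36-fold lower), and 0 of 3 endothelial genes were called by edgeR. The mural genes that rose had low counts. Notch3 had 18 to 22 per library in control and 48 to 54 with circSlc17a5, and Pdgfrb 24 to 30 and 62 to 71. Anpep had between 5283 and 7392 counts per library. Of 10 fibroblast and matrix genes 2 rose and 0 fell, Pdgfra, a growth factor receptor, at 1.67-fold and Fbln1, fibulin 1, at 1.33-fold. Of 3 skeletal and cardiac muscle genes Tnnt2 fell, at 1.49-fold lower, and of 4 simple epithelial genes Epcam rose at 2.32-fold and Krt18 fell at 1.37-fold lower. Epcam too had low counts, 12 to 21 per library in control and 33 to 40 with circSlc17a5. Over all lists 12 of 78 tested genes rose and 9 fell, where 11.8% of all tested genes rose and 10.2% fell. The calls of 8 of the 21 held with each library left out in turn, among them Ccn1, Mical2, Tgfb3, Mustn1, Notch3, Pdgfrb and Anpep. The other 13 reached adjusted p between 0.0593 and 0.167 in at least 1 such fit, of which 12 lost their call without circSlc17a5 replicate 1, and Fbln1 lost its call without control replicate 3 or circSlc17a5 replicate 2 or 3. Pdgfra lost its call in that way only without circSlc17a5 replicate 1 (adjusted p = 0.0702).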

How the data were processed

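Per the labels' protocols, TRIzol total RNA went into a SMARTer mRNA-Seq library kit. Per gene and per transcript, the deposited tables hold the authors' FPKM, TPM and expected counts. Between 9.05% and 10.8% of the expected counts of a library were not whole. Deposited TPM sums lay between 999983 and 999988. The submitters' processing notes name RSEM 1.2.12, HISAT2 2.0.4 and Bowtie2 2.2.5 without their roles. Strand handling, filters and the genome build were not given in the sources used here. Gene coordinates are those of the files. Per the file headers, the authors' comparison used DESeq2, and its log2 fold changes and p-values and q-values were deposited in a further table.

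Of 15399 genes, 15398 with an annotation entry were used. Expected counts were rounded, filtered with filterByExpr, scaled by TMM and compared in edgeR 4.0.16 (R 4.3.3, quasi-likelihood test, two-sided, Benjamini-Hochberg over all tested genes, called under 0.05). The SE was obtained from the F statistic, as the size of the log2 fold change over its root. Single-library ratios have exact 95% binomial intervals. Alternatives were DESeq2 1.42.0, RLE factors, no filter, limma 3.58.1 on log2(FPKM + 1) and log2(FPKM + 0.1), left-out libraries, the replicate number as a block, and TPM or FPKM for the pattern. The offset was fitted per library by splines on transcript length and GC content. Tests were checked on simulated data.

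The members and lists were chosen with earlier results of these data known. Named genes were all members, up to 3 called genes per list and direction, list genes with the strong pattern, each list's most abundant gene, and the 10 profiles nearest to an anchor member. Not all of these are reported here. Other genes named (among them Itgb1, App, Bgn, Col5a2, Mylk, Srf, Mrtfa, Mrtfb, Flt1, Egfl7, Cdh5, Myh11 and Lmod1) were chosen after their values were seen.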

Additional observations from a re-analysis of the deposited data

How the results depend on the processing

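Over all genes, the number risen was 2324 and the number fallen 2105 with the replicate block, in place of 1386 and 1198. On log2(FPKM + 1) 673 fell, on log2(FPKM + 0.1) 664, and without a filter on FPKM 643 rose and 235 fell. With 1 library left out at a time, between 346 and 2424 genes rose and between 116 and 2275 fell, the lowest without circSlc17a5 replicate 1 and the highest without control replicate 1. The number of members fallen was 1 in each of the 3 fits on FPKM values, and it ran from 0 to 3 (risen, 0 to 2) with 1 library left out. Of the listed genes 26 rose without control replicate 1 and circSlc17a5 replicate 2 together and 25 with the replicate block, 3 fell on unfiltered FPKM, and between 6 and 29 rose and between 3 and 13 fell with 1 library left out. Of the 21 listed genes called, 12 lost the call on unfiltered FPKM, 2 on each other FPKM scale, 4 with the offset for length and GC content and 0 with DESeq2, RLE factors, no filter on counts or the block. Tagln2 was called fallen with the block (-0.187, edgeR adjusted p = 0.0347), which made 3 members. DESeq2 called 2 member transcripts (6.67% of all transcripts). Tpm1 changed sign to 0.078 in the 3 FPKM fits and ran from -0.042 to 0.036 with 1 library left out, against -1.83 to 5.64 for Tagln and -1.29 to 3.80 for Acta2. The strong pattern held for 26 genes with at least 10 counts and 6 of those tested, and the wider criterion for 174 on TPM. Tpm2 was even on FPKM and on CPM without a scaling factor. Where the alternative's own construction does not show it, the cause was not tested. Same-numbered libraries deviated with correlations of 0.219, 0.068 and 0.065 over genes, and control replicates 2 and 3 correlated more with circSlc17a5 replicates 3 (0.310) and 1 (0.074), so the numbers were not taken to pair libraries. Depth limits Actg2 and Cnn1, with 28 and 8 counts in all.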
